A study of Mus musculus with 36 samples.

Results

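The genotype difference examined here was the difference in gene expression between Brd1+/- and WT mice that vehicle and imipramine have in common, in the anterior cingulate cortex (aCC). All 36 libraries of the series entered it. The 18 Brd1+/- libraries (9 vehicle, 9 IMN) were set against the 18 WT libraries (8 vehicle, 10 IMN), and treatment was fitted as an additive term with no interaction. The mice were females of the C57BL/6NTac strain, 8 to 11 weeks old, each giving 1 library from tissue punched out of the right aCC. Brd1+/- mice came from a line heterozygous for a deletion within Brd1, made with a vector whose loxP sites lie on either side of exons 3 to 5, and WT mice carried 2 intact alleles. Vehicle mice received saline, and IMN mice received 10 mg/kg of imipramine, which is a tricyclic antidepressant. Mice of all 4 groups had also been through behavioral tests, a forced swim among them, in the time before the brains were taken, so no group was undisturbed. The levels are TPM, which give each gene its share of the transcripts in a library, and every difference is on the scale log2(TPM + 0.5), as Brd1+/- minus WT.

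BRD1 is a scaffold protein of the BRPF family. Through its PHD fingers, its bromodomain and its PWWP domain it binds chromatin, and it brings MYST acetyltransferases such as KAT7 to histone H3 together with the small subunits MEAF6 and ING4 or ING5. BRPF1 and BRPF3 are its paralogs and fill the same place in related complexes. In the forebrain BRD1 has been linked to neuronal development and to susceptibility for psychiatric disease. A heterozygous loss lowers the dose of the scaffold and leaves the genes of the other subunits intact.

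The targeted stretch is shown first because it defines the genotype and bears on what a level of Brd1 can show. Brd1 (ENSMUSG00000022387) lies at chr15:88687034-88734233 on the minus strand of GRCm38. In transcript Brd1-203 of the GENCODE annotation, which has 13 exons and 5152 bases, exons 3 to 5 hold 157, 132 and 129 bases of coding sequence, 418 bases in all or 8.11% of the transcript. The study does not say which transcript its exon numbers refer to, and those of Brd1-203 are used here. The sequences run 5′ to 3′ on the coding strand, and the capital letter in exon 3 marks the base that completes a codon begun in the exon before it.
Exon 3, chr15:88716906-88717062: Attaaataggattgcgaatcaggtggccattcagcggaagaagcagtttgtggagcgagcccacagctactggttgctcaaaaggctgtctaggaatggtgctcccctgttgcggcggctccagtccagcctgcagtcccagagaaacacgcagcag
Exon 4, chr15:88713886-88714017: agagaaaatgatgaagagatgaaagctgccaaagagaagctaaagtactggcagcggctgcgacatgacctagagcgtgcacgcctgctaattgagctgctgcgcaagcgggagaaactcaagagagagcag
Exon 5, chr15:88713298-88713426: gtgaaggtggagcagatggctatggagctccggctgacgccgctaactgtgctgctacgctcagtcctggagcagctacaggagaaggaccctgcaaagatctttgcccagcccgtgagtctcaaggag
Start of exon 6, chr15:88712877-88712928: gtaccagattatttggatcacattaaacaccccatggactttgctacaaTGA
The 418 bases leave a remainder of 1 when divided by 3, so joining exon 2 to exon 6 shifts the reading frame. In the reference the frame runs for 1189 codons. With the 3 exons left out it meets the TGA in capitals, 50 bases into exon 6, after 472 codons. A transcript of the targeted allele would keep most of its bases, which lie outside the deleted exons. Reads in those kept bases count towards Brd1, and the table gives 1 value per gene, so the alleles could not be told apart.

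The table held 52636 genes, and 25572 of them reached at least 0.1 TPM in at least 8 libraries and were tested. Between 24685 and 25517 genes were above 0 in a library. TPM keep no depth, and the study's methods give a minimum number of reads common to all libraries rather than a total for each, so the depth behind a single value is unknown. Markers of cortical excitatory neurons (8 of 8 at a median of at least 1 TPM) marked all libraries as cortex, with a mean level between 7.23 and 7.81 on the log2 scale in WT and between 7.05 and 7.68 in Brd1+/- mice. Brd1+/- vehicle 6 stood far apart. It had a mean level of the striatal markers of 6.02, where the next library had 3.55, and of the choroid plexus markers of 4.5, where the next had 0.16. Its level of Ttr, the transthyretin made by the choroid plexus, was 3806 TPM against a median of 0.125 TPM over the 36 libraries. WT vehicle 1 had the lowest mean level of the upper-layer markers (4.19, next 4.34) and the highest of the excitatory neuron markers (7.81, next 7.68), by small margins. The main results are also given without both. Among the IMN libraries, Brd1+/- IMN 5 had the highest mean level of the meninges markers (4.45, next 3.63) and of the erythrocyte markers (7.11, next 6.46). Brd1+/- IMN 6 had the lowest levels of the microglia markers (4.09, next 4.39), of the immediate-early genes (4.56, next 4.97), of the excitatory neuron markers (7.05, next 7.18) and of the striatal markers (2.37, next 2.59). The Brd1 difference described next was -0.56 without either of these IMN libraries, with a limma adjusted p of 2e-05 without the former and 2.33e-05 without the latter.

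Brd1 was the one gene that differed between the genotypes after adjustment. With vehicle, Brd1 ran from 22.6 through a median of 26.1 to 31.9 TPM in WT and from 13.8 through 16 to 20.9 TPM in Brd1+/- mice. With IMN, it ran from 17.9 through 24.0 to 27.8 TPM in WT and from 13.5 through 17.3 to 19.4 TPM in Brd1+/- mice. The vehicle groups did not overlap, whereas the IMN groups overlapped between 17.9 and 19.4 TPM. All 18 Brd1+/- libraries lay below the WT median, and 11 of them below the lowest WT library. Mean levels in WT and Brd1+/- mice were 24.7 ± 3.52 and 16.8 ± 2.36 TPM (SD, n = 18 each). The log2 difference was -0.54 (SE 0.067), which put Brd1+/- mice at 68.7% of the WT level with a 95% interval from 62.6% to 75.5%. The limma adjusted p was 2.83e-05 (Benjamini-Hochberg over all genes tested). A permutation test with 100000 draws, two-sided, with the genotypes exchanged within each treatment, gave p = 1e-05, the smallest these draws can give.

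The Brd1 difference was present in the libraries of each treatment, which share no mouse. It was -0.64 (SE 0.095) with vehicle and -0.45 (SE 0.091) with IMN. Exact permutation tests, two-sided, gave p = 8.23e-05 with vehicle and p = 0.000325 with IMN. Adjusted over all genes, neither treatment alone passed in limma, with an adjusted p of 0.0620 with vehicle and 0.882 with IMN. The gap between these differences was 0.19 (SE 0.13), with a limma adjusted p of 1.00 for the interaction. Without WT vehicle 1 and Brd1+/- vehicle 6 the difference was -0.56, with a limma adjusted p of 5.9e-05. In bulk tissue, fewer cells of a type and less RNA per cell cannot be told apart. Under the same fit 1 of 25572 genes, 0.00391%, passed an adjusted p of 0.05.

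**Figure D1:**
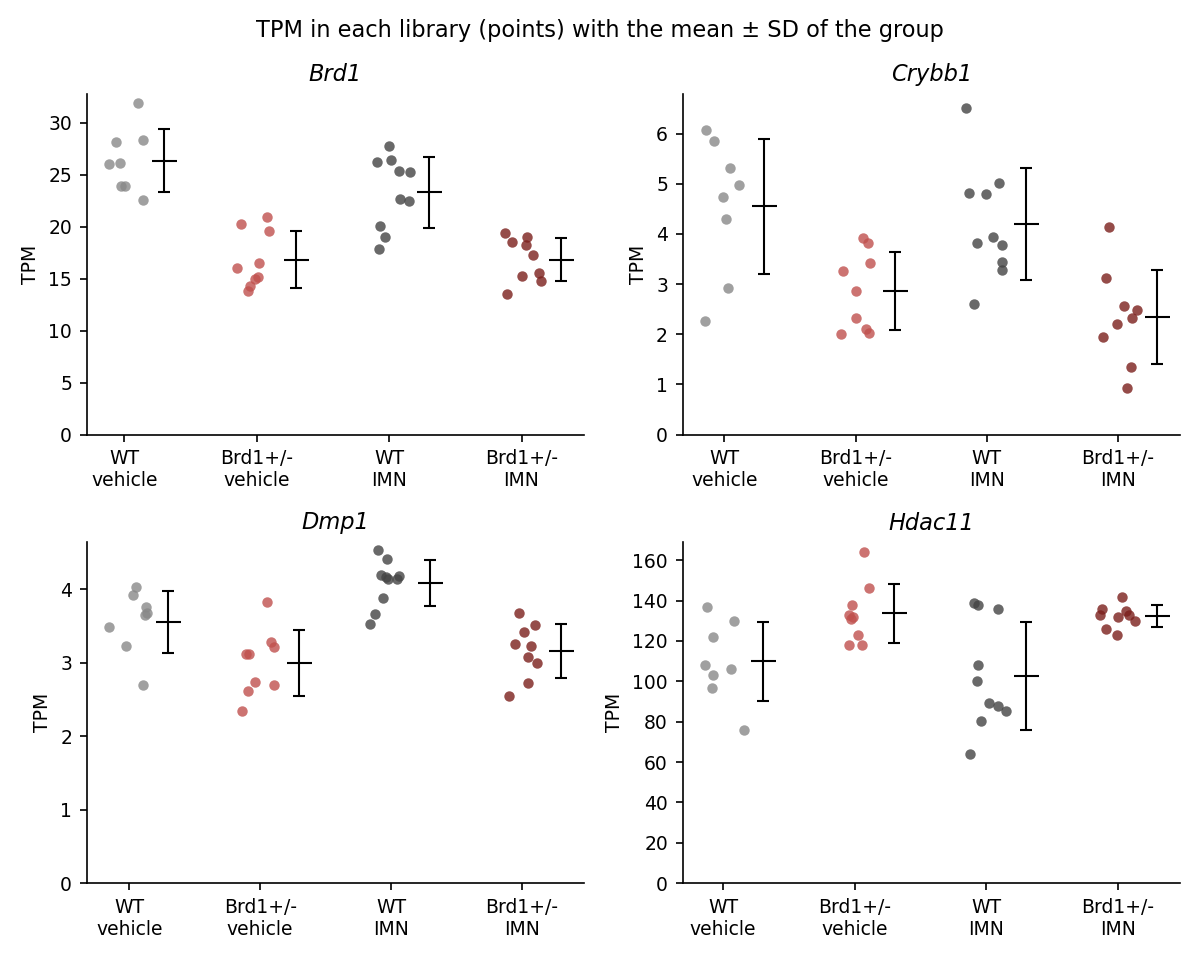
TPM of Brd1, Crybb1, Dmp1 and Hdac11 (y axes, from 0) in each library of the 4 groups (x axes), with points for libraries and black bars for the mean ± SD. Brd1 sits between 13.5 and 20.9 TPM in Brd1+/- mice and between 17.9 and 31.9 TPM in WT mice, and the Hdac11 points of the WT groups spread more widely than those of the Brd1+/- groups.

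Outside Brd1 no difference passed adjustment in the fit of all 36 libraries. At an unadjusted p under 0.01, 76 genes had a higher level in Brd1+/- mice, 0.297% of those tested, and 111 a lower level, 0.434%. The balance of directions moved with the scaling and the treatment: it was 95 higher and 100 lower with median-ratio scaling, 88 and 97 when rescaled over nuclear genes, 64 and 115 with vehicle only, and 97 and 60 with IMN only. At an unadjusted p under 0.05 the numbers were 431 higher (1.69%) and 495 lower (1.94%). At both levels the share of both directions together was below the level itself, which is the share expected if no gene differed. The smallest adjusted p after Brd1 was 0.152. Of the 17696 tested genes whose mean reached 1 TPM, 16359 (92.4%) had a 95% interval of the genotype difference that lay inside a 1.5-fold change in either direction, and 10721 (60.6%) had one inside a 1.2-fold change. A log2 difference larger than 0.5 in either direction was seen for 113 of the 17696, Brd1 included. The median difference over all genes tested was -0.005. No tested gene, Brd1 included, separated all 18 Brd1+/- libraries from all 18 WT libraries (0 genes).

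**Figure D2:**
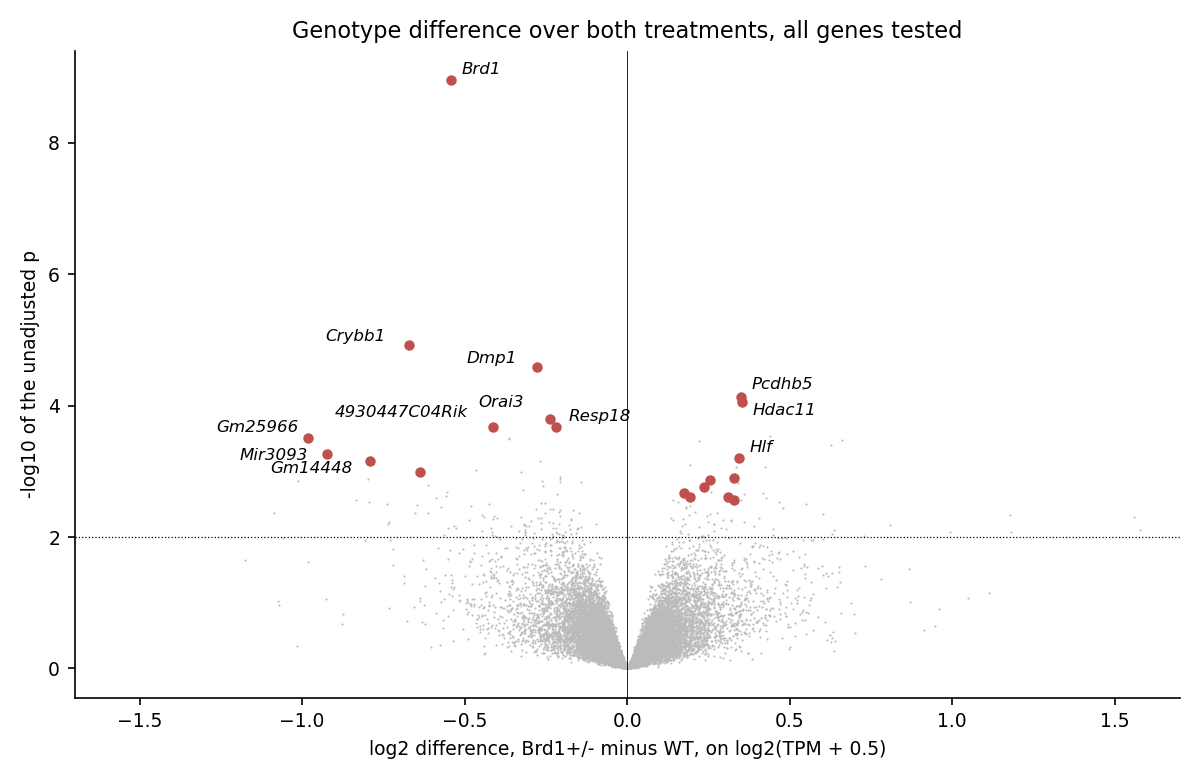
Log2 difference between Brd1+/- and WT mice (x axis) against -log10 of the unadjusted p (y axis, a log scale) for the 25572 genes tested, with the 20 genes named by p in red and a dotted line at p of 0.01. Brd1 stands alone at the top, and Crybb1, Dmp1, Pcdhb5 and Hdac11 come next among the genes in red.

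Crybb1 encodes a beta-crystallin of the lens that microglia of the brain also transcribe, and it ranked next after Brd1. With vehicle it ran from 2.26 through a median of 4.85 to 6.07 TPM in WT and from 2.01 through 2.86 to 3.92 TPM in Brd1+/- mice. With IMN it ran from 2.6 through 3.87 to 6.52 TPM in WT and from 0.939 through 2.33 to 4.13 TPM in Brd1+/- mice. The groups overlapped under both treatments, and all 18 Brd1+/- libraries lay below the WT median. Crybb1 and the genes named by p below were chosen on these same libraries. Counts of their libraries beyond the WT median or range are in part a consequence of that choice. Mean levels in WT and Brd1+/- mice were 4.36 ± 1.2 and 2.6 ± 0.876 TPM (SD, n = 18 each), a log2 difference of -0.67 (SE 0.13) with a limma adjusted p of 0.152. It did not pass in the fit of all 36 libraries. Without WT vehicle 1 and Brd1+/- vehicle 6 the difference was -0.71 and passed, with a limma adjusted p of 0.0398. It also passed with array weights (0.0153) and without WT vehicle 1 (0.0187), WT vehicle 7 (0.0464) or Brd1+/- IMN 3 (0.0377) alone, by limma adjusted p. Over all single libraries left out in turn, the adjusted p lay between 0.0187 and 0.328.

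Levels of microglia markers were set beside Crybb1. All 7 markers had a median of at least 1 TPM. Of the 7, 6 had a difference below 0 (median -0.03), beside 13466 of all 25572 genes tested. Tmem119 had the smallest unadjusted p of the list, 0.0115, with a mean of 15.3 TPM in WT and 13.3 TPM in Brd1+/- mice. The mean level of the list lay between 4.39 and 4.96 in WT and between 4.09 and 4.81 in Brd1+/- mice. With this mean level as a further term, chosen after the data were seen, the Crybb1 difference was -0.61 with a limma adjusted p of 0.0673, against -0.67 without it. P2ry12, a purinergic receptor of homeostatic microglia, had the opposite sign, with a difference of 0.11.

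Dmp1 encodes an acidic phosphoprotein of mineralized matrix in bone and dentin. With vehicle it ran from 2.7 through 3.66 to 4.03 TPM in WT and from 2.34 through 3.11 to 3.83 TPM in Brd1+/- mice. With IMN it ran from 3.53 through 4.15 to 4.53 TPM in WT and from 2.54 through 3.22 to 3.68 TPM in Brd1+/- mice. The ranges overlapped, and all 18 Brd1+/- libraries were below the WT median. The log2 difference was -0.28 (SE 0.058) with a limma adjusted p of 0.218, which did not pass. It passed without WT vehicle 7, at 0.0464, and stood at 0.416 without WT vehicle 1 and Brd1+/- vehicle 6.

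Hdac11 encodes the class IV histone deacetylase and lay on the higher side. With vehicle it ran from 76.0 through a median of 107 to 137 TPM in WT and from 118 through 132 to 164 TPM in Brd1+/- mice. With IMN it ran from 64.0 through 94.8 to 139 TPM in WT and from 123 through 133 to 142 TPM in Brd1+/- mice. Every Brd1+/- library was above the WT median (18 of 18), and the WT libraries reached far lower. Mean levels in WT and Brd1+/- mice were 106 ± 23.4 and 133 ± 10.7 TPM (SD, n = 18 each). The log2 difference was 0.35 (SE 0.080) with a limma adjusted p of 0.336, and 0.32 with an adjusted p of 0.636 without WT vehicle 1 and Brd1+/- vehicle 6. With the striatal and oligodendrocyte marker levels as further terms it was 0.36.

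Pcdhb5, a clustered protocadherin of the neuronal surface, had the smallest p on the higher side once genes averaging under 1 TPM were set aside. A smaller p was that of Gm48858 (5.53e-05, against 7.36e-05 for Pcdhb5), whose mean was 0.223 TPM and whose difference was 0.54 (SE 0.118). With vehicle, Pcdhb5 ran from 1.74 through 2.6 to 3.58 TPM in WT and from 2.68 through 3.48 to 4.23 TPM in Brd1+/- mice. With IMN it ran from 1.78 through 2.42 to 3.47 TPM in WT and from 2.67 through 3.42 to 3.78 TPM in Brd1+/- mice. The ranges overlapped, and all 18 Brd1+/- libraries were above the WT median. The log2 difference was 0.35 (SE 0.078) with a limma adjusted p of 0.336, and 0.32 with an adjusted p of 0.546 without WT vehicle 1 and Brd1+/- vehicle 6.

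None of the other genes named by p passed an adjusted p of 0.05 in any fit run. On the higher side, Hlf, a transcription factor with a circadian rhythm, had a mean of 70.1 TPM ± 13.7 in WT and 89.2 TPM ± 21.4 in Brd1+/- mice (SD, n = 18 each), a log2 difference of 0.34. Ccne2, which encodes a cyclin of the entry into S phase, had 5.99 and 7.57 TPM in the same order, and Cyp7b1, a hydroxylase of oxysterols and neurosteroids, had 6.78 and 7.73 TPM. Pcdhb9 had 5.97 and 7.15 TPM, and Pnma3, of a family derived from retrotransposon Gag genes, had 11.2 and 12.8 TPM. 9930104L06Rik had 6.44 and 8.15 TPM. The remaining pair on this side were the noncoding Gm15663, with a difference of 0.26, and Hspe1-ps5, a processed pseudogene of a mitochondrial chaperonin gene, with 0.33. The value of such a pseudogene is uncertain, since reads from near-identical copies can be counted for it.

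On the lower side, Orai3, a subunit of store-operated calcium channels, had a mean of 11.5 TPM ± 0.946 in WT and 9.65 TPM ± 1.42 in Brd1+/- mice (SD, n = 18 each), and 10 of 18 Brd1+/- libraries lay below the lowest WT library. 4930447C04Rik had 40.8 TPM ± 7.1 and 30.7 TPM ± 7.01 in the same order, and 17 of 18 Brd1+/- libraries were below the WT median. Resp18, a protein of secretory granules in endocrine and neuroendocrine cells, had 146 TPM ± 14.4 and 126 TPM ± 15.3. Their log2 differences were -0.24, -0.41 and -0.22, with limma adjusted p of 0.512, 0.549 and 0.549. Slc38a5, an amino acid transporter, had 1.71 and 0.97 TPM. The remaining 3 entries were short or repeated features: the rRNA gene Gm25966 (difference -0.98), the miRNA hairpin Mir3093 (-0.93) and the pseudogene Gm14448 (-0.79). Each had a mean level between 1.07 and 1.46 TPM over all libraries, where the counting of short features is uncertain.

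The libraries of each treatment were then used to read the genes chosen in the other. The fits share no library, so the genotype difference with IMN did not enter the choice made with vehicle. Of 64 genes higher in Brd1+/- mice with vehicle at an unadjusted p under 0.01, 32 had a difference above 0 with IMN, and 32 did not, while 52.0% of all genes tested had one. Among them 4 (6.25%) also had an unadjusted p under 0.05 with IMN in the same direction, against 1.97% of all genes tested, and they were A330043C09Rik, Gm48858, Hdac11 and Pcdhb5. Of 115 genes lower with vehicle, 56 (48.7%) had a difference below 0 with IMN, against 48.0% of all. Among these 8 (6.96%, against 1.26% of all) had an unadjusted p under 0.05 with IMN as well: Brd1, Crybb1, Orai3, 4930447C04Rik, Gm14448, Mir3093, Gm45705 and Gm45706. The count includes Brd1, the targeted gene, as does the count of lower genes in the reading that follows. Gm45705 and Gm45706 had the same mean (0.71 TPM) and joint difference (-0.364), and may not be 2 separate results.

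Read the other way, 97 genes were higher with IMN at an unadjusted p under 0.01, and 4 of them (4.12%, against 1.22% of all genes tested) were higher with vehicle at an unadjusted p under 0.05: Hdac11, Pcdhb5, Gm48858 and the histone demethylase gene Kdm4d. Of these 97 genes, 46 (47.4%) had a difference above 0 with vehicle, against 43.7% of all. Of 60 genes lower with IMN, 37 (61.7%, against 56.3% of all) had a difference below 0 with vehicle, and 8 (13.3%, against 2.53% of all) were lower with vehicle at that level: Brd1, Crybb1, Dmp1, Resp18, 4930447C04Rik, Slc38a5, Gm25966 and Il27ra. Brd1, Crybb1, 4930447C04Rik, Hdac11, Pcdhb5 and Gm48858 were found in both readings, that is, at an unadjusted p under 0.01 with each treatment. Both readings use the same p of each gene, so they are not separate checks. Over all genes tested, Pearson's r between the differences with vehicle and with IMN was -0.02, as a description across genes, which are not independent replicates. Most genes chosen with one treatment did not reach an unadjusted p under 0.05 with the other, and those that did are named above. No gene passed an adjusted p of 0.05 for the interaction in limma (0 of 25572), and 818 had an unadjusted p under 0.05.

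**Figure D3:**
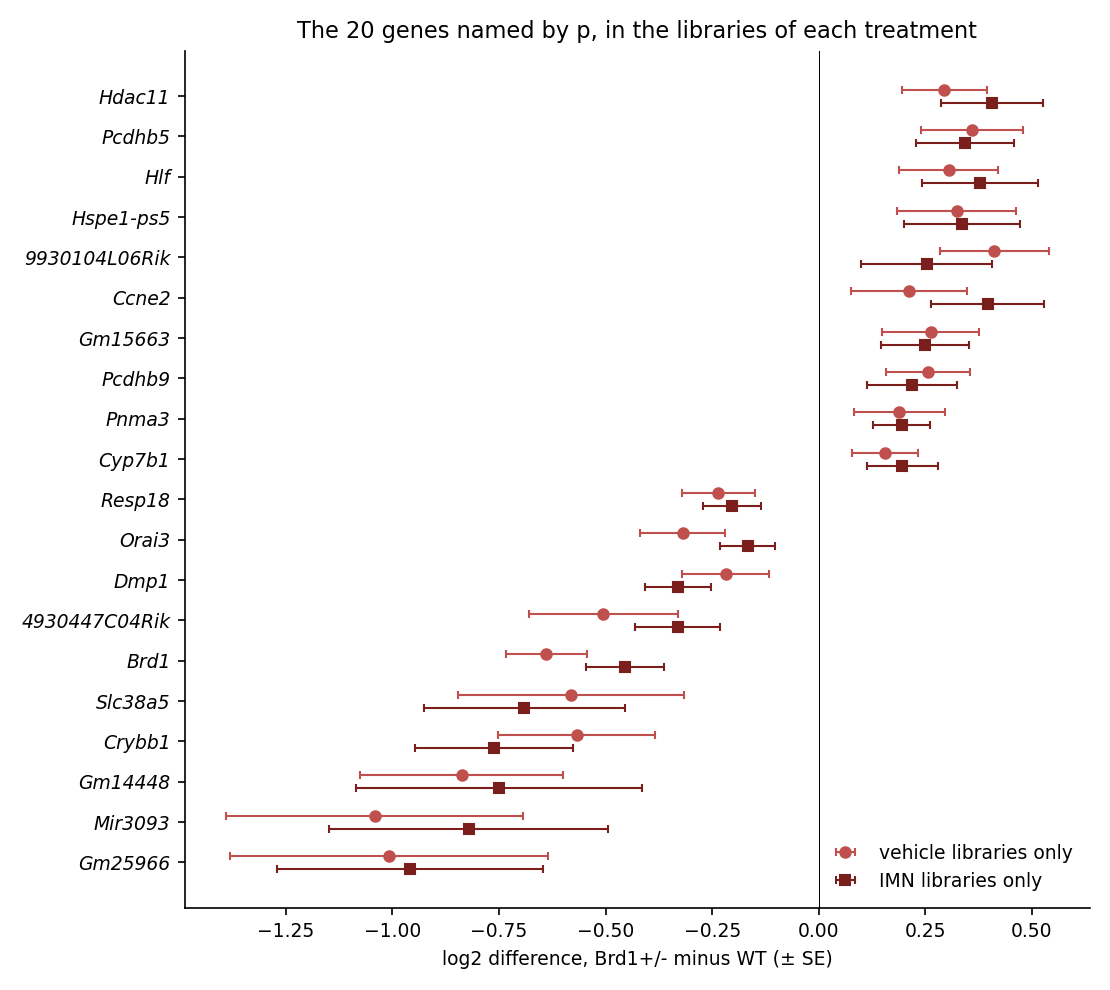
Log2 difference between Brd1+/- and WT mice (x axis) with its SE in the vehicle libraries (circles) and the IMN libraries (squares), for the 10 genes in each direction with the smallest p in the joint fit (y axis). The genes were chosen on the sum of both, so the shared sign is a consequence of the choice. Brd1 reads -0.64 with vehicle and -0.45 with IMN.

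Clustered protocadherins were looked at as a family after Pcdhb5 and Pcdhb9 had been seen among the named genes. These adhesion proteins are expressed in combinations that give single neurons an identity. Where 12106 of all 25572 genes tested had a difference above 0 (median -0.005), 17 of 22 tested Pcdhb genes had one, with a median of 0.06. At an unadjusted p under 0.05, 3 were higher (Pcdhb3, Pcdhb5 and Pcdhb9) and 1 was lower (Pcdhb12), where 1.69% and 1.94% of all genes were. Pcdhb5 and Pcdhb9 had prompted the choice of the family, so the count of 3 is raised by that choice. With vehicle 5 were higher and 1 lower, beside 313 and 646 of all 25572 genes. With IMN 1 was higher and 1 lower, beside 505 and 321 of all genes. Pcdhb3 had 2.41 TPM in WT and 2.97 TPM in Brd1+/- mice. Pcdhb12 had a mean of 2.71 TPM ± 1.76 and 1.58 TPM ± 0.401 in the same order (SD, n = 18 each). Its medians were 1.62 and 1.58 TPM, and the WT libraries reached up to 5.93 TPM. Only 9 of 18 Brd1+/- libraries lay below the WT median. The Pcdhb12 difference was -0.095 with vehicle and -0.808 with IMN. Of 22 Pcdhg genes, 3 were higher at that level (Pcdhgb5, Pcdhgb6 and Pcdhga8), with differences of 0.40, 0.35 and 0.36, and 14 of the 22 had a difference above 0, with a median of 0.08. This median was 0.16 with vehicle and -0.005 with IMN. Of 14 Pcdha genes, 12 had a difference above 0, with a median of 0.11, and 1 was lower at that level (Pcdha6), with 4.54 TPM ± 4.5 in WT and 2.05 TPM ± 3.33 in Brd1+/- mice (SD, n = 18 each). None of these genes passed adjustment. The Pcdha and Pcdhg genes share their constant exons within each cluster, so their values depend on how shared reads were divided.

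The partners of BRD1 in acetyltransferase complexes were all expressed. Besides Brd1, 0 of the 11 other genes of this list reached an unadjusted p under 0.05, and their differences ran from -0.07 for Jade2 to 0.14 for Brpf3. Kat7, the acetyltransferase that BRD1 recruits, had 38.7 TPM ± 4.5 in WT and 39.5 TPM ± 4.49 in Brd1+/- mice (SD, n = 18 each), a difference of 0.03 with a 95% interval from -0.08 to 0.15. Brpf3, a paralog, had 10.6 and 12 TPM, with a difference of 0.14 and an interval from -0.12 to 0.41. Of 25 other acetyltransferases, deacetylases and bromodomain readers, Hdac11 alone reached an unadjusted p under 0.05, where 1.69% of all genes tested were higher and 1.94% lower at that level, and the median of the list was -0.02.

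A set of 4 further genes was read whatever their values: Drd2, Slc25a35 and Slc6a3, which the study's text names in connection with this tissue, and Kcnd2, which that text does not discuss and which was taken up from earlier results of these data. Drd2, the dopamine D2 receptor, ran from 0.155 through 0.604 to 1.48 TPM in WT vehicle and from 0.347 through 0.846 to 34.7 TPM in Brd1+/- vehicle libraries, and reached at most 1.12 TPM in the IMN libraries. The highest value was that of Brd1+/- vehicle 6, the library with high striatal markers. The Drd2 difference was 0.41 (permutation p = 0.204) with this library and 0.17 without WT vehicle 1 and Brd1+/- vehicle 6. Slc25a35, a mitochondrial carrier, had 4.63 TPM ± 0.631 in WT and 5.18 TPM ± 1.12 in Brd1+/- mice (SD, n = 18 each). Its difference was 0.14 over both treatments (permutation p = 0.0415), -0.02 with vehicle and 0.29 with IMN. Kcnd2, a pore subunit of the A-type potassium channel, had 33.3 TPM ± 3.94 and 35.7 TPM ± 3.45 (SD, n = 18 each), a difference of 0.11 over both treatments (permutation p = 0.049), 0.20 (SE 0.0645) with vehicle and 0.03 (SE 0.0821) with IMN. In all 4 genes were tested in this way, Brd1 included, and these permutation p are unadjusted. Kcnd2 was taken up from results of these same libraries, and the study named Drd2 and Slc25a35 from them. The permutation p of these genes are therefore not fresh tests. By limma, the adjusted p of Drd2, Slc25a35 and Kcnd2 was 0.999. Slc6a3, the dopamine transporter, was not tested, since no library reached 0.1 TPM.

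Signalling and synaptic lists showed little against the background of 1.69% and 1.94%. Of 26 tested monoamine receptors, 0 reached an unadjusted p under 0.05, with a median difference of 0.01. The smallest p in this list were those of Htr7 (0.0596, difference 0.28) and Htr1a (0.0843, difference 0.14), both serotonin receptors. The cAMP and CREB list (32 genes), the dendrite and spine list (30 genes), the GABA list (20 genes) and the glutamate receptor list (22 genes) had 0 members at that level too. Without WT vehicle 1 and Brd1+/- vehicle 6, Htr1a (difference 0.17, unadjusted p 0.0358) and Adcy7 (-0.28, 0.0208) reached it, and with IMN alone 2 genes of the cAMP and CREB list were higher at that level. Of all 25572 genes, 480 were higher and 610 lower at that level without the pair, and 505 and 321 with IMN alone. The medians of the cAMP and CREB, dendrite and spine, GABA and glutamate receptor lists were -0.01, -0.02, 0.03 and -0.01, beside -0.005 over all genes tested. Crem, a cAMP-responsive transcription factor, had a difference of -0.22 (unadjusted p 0.0553) and Adcy7, an adenylyl cyclase, one of -0.23 (0.0631). Synpo, an actin-binding protein of the spine apparatus, had -0.23 (0.0958), and Camk2b, a calcium/calmodulin-dependent kinase subunit, had -0.14 (0.131). Gad2, a GABA-synthesizing enzyme, had 0.11 (0.0596) and Gabbr1, a GABA-B receptor subunit, -0.07 (0.174). For the glutamate receptor subunits Grik5 and Grin2c the differences were -0.11 (0.105) and -0.10 (0.152). In the dendrite and spine list 22 of 30 members had a difference below 0, and in the unfolded protein response list 21 of 26, against 13466 of 25572 genes tested. For dendrite and spine genes, 23 of 30 were below 0 with vehicle (median -0.08) and 16 of 30 with IMN (median -0.01). For the unfolded protein response, 14 of 26 were below 0 with vehicle (median -0.01) and 21 of 26 with IMN (median -0.07). Of all 25572 genes tested, 14395 were below 0 with vehicle (median -0.018) and 12277 with IMN (median 0.005). The gap between treatments was not tested for these lists.

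Of the 26 genes of the unfolded protein response, 1 reached an unadjusted p under 0.05. This was Sdf2l1, a chaperone partner of the endoplasmic reticulum, with 10.9 TPM ± 3.28 in WT and 9.24 TPM ± 4.17 in Brd1+/- mice (SD, n = 18 each) and a difference of -0.31 (limma adjusted p 0.999). Ddit3, the stress-induced transcription factor CHOP, came next with -0.12 (unadjusted p 0.0606). Without WT vehicle 1 and Brd1+/- vehicle 6 there were 3 at that level, all lower: Sdf2l1 (-0.34), the protein disulfide isomerase gene Pdia4 (-0.20) and Creld2 (-0.21), which is also a neighbor of Brd1. In that fit 610 of all 25572 genes were lower at that level. The 13 mitochondrially encoded proteins had 0 members at that level, and 12 of them had a difference above 0 (median 0.03). Of all 25572 genes tested, 12106 had a difference above 0. The smallest p of these 13 were those of mt-Nd6 (0.173) and mt-Nd2 (0.205), both complex I subunits.

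**Figure D4:**
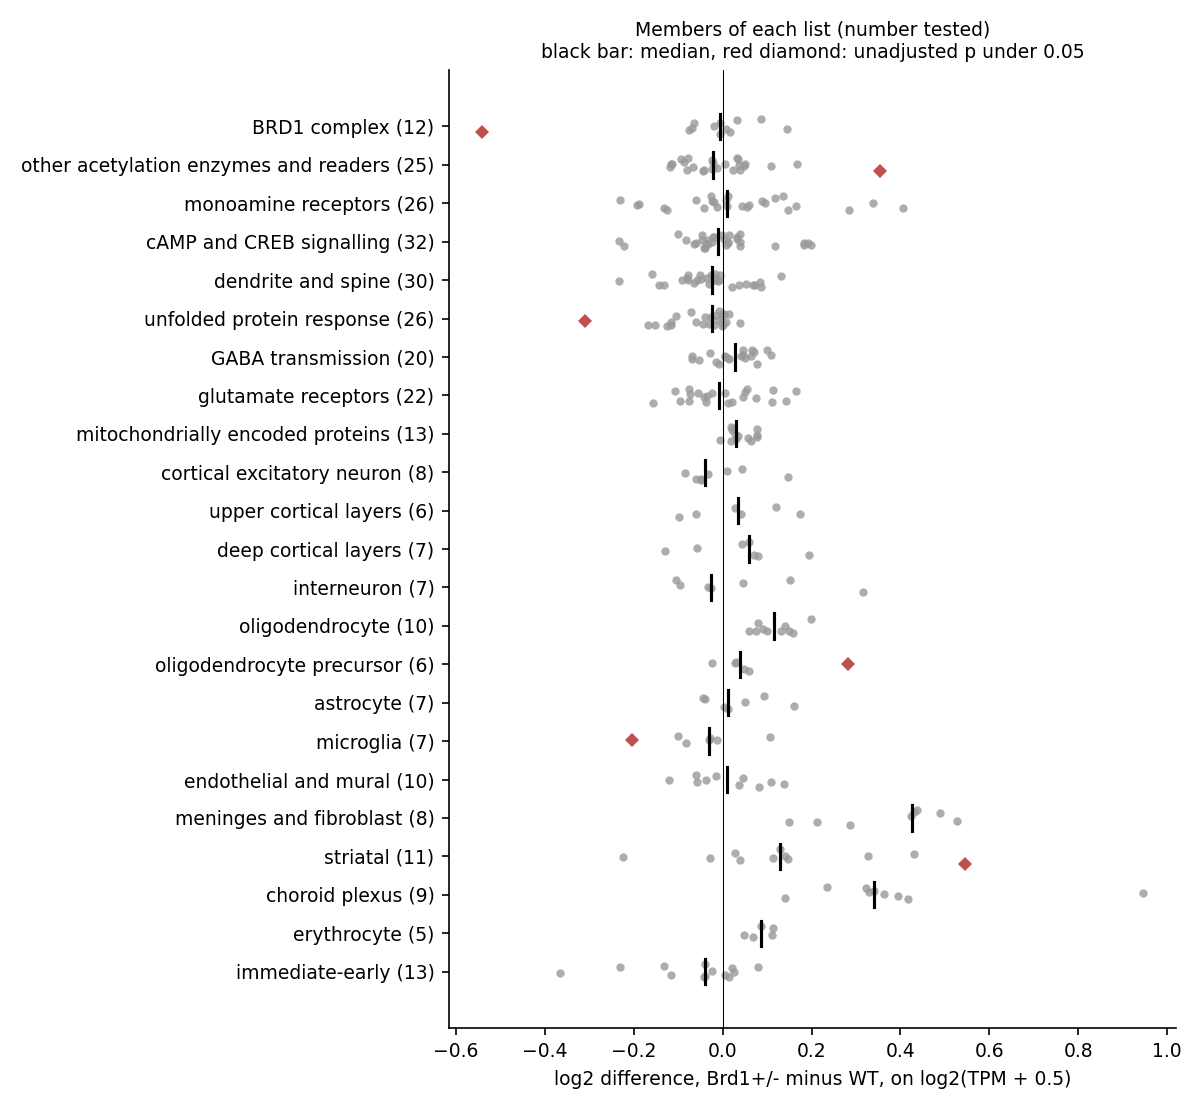
Log2 difference between Brd1+/- and WT mice (x axis) for each tested member of the 23 pathway and marker lists (y axis, number tested in parentheses), with the list median as a black bar and members at an unadjusted p under 0.05 as red diamonds. Most pathway members lie between -0.3 and 0.3, whereas the meninges and choroid plexus lists lie to the right of 0.

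Cell type markers were read for the whole tissue punch. The marker lists of excitatory neurons, upper and deep layers, interneurons, astrocytes, endothelial and mural cells, erythrocytes and immediate-early genes had 0 members at an unadjusted p under 0.05. Of all genes tested, 1.69% were higher and 1.94% lower at that level. Without WT vehicle 1 and Brd1+/- vehicle 6, the glucose transporter gene Slc2a1 of the endothelial list (-0.18) and the immediate-early gene Fosb (-0.36) were lower at that level. In that fit 610 of 25572 genes were lower at this level, and 13751 had a difference below 0. Of the 13 immediate-early genes, 12 were below 0 there (median -0.105), against 8 with all libraries (median -0.04). With the microglia marker level as a further term and all libraries, 8 of the 13 were above 0. All 10 oligodendrocyte markers had a difference above 0 over both treatments, with a median of 0.12, but this median was 0.35 with vehicle and -0.08 with IMN, and the mean level ran from 3.15 to 7.39 in WT and from 3.31 to 7.29 in Brd1+/- mice. Pdgfra, which marks oligodendrocyte precursors, had a difference of 0.28 (unadjusted p 0.0329), and the other 5 markers of these cells did not reach 0.05. All 8 markers of meninges and fibroblasts had a difference above 0, with a median of 0.43 and none at an unadjusted p under 0.05, and 0.35 without WT vehicle 1 and Brd1+/- vehicle 6. The median was 0.11 with vehicle (6 of 8 above 0) and 0.71 with IMN (8 of 8), and 0.26 over both treatments without Brd1+/- IMN 5. Of all 25572 genes tested, 12106 had a difference above 0 over both treatments, 11177 with vehicle and 13295 with IMN. The mean level of the meninges and fibroblast markers was between 0.62 and 3.33 in WT and between 0.91 and 4.45 in Brd1+/- mice. Of the 11 tested striatal markers, 1 (Gpr6) was higher at an unadjusted p under 0.05. The striatal and choroid plexus medians were 0.13 and 0.34 with all libraries and -0.004 and 0.09 without that pair. Without the pair, 2 striatal markers were higher at an unadjusted p under 0.05, Adora2a (0.25, limma p 0.00807) and Gpr6 (0.32, 0.00961). At that level 480 of 25572 genes were higher in that fit, and 5 of the 11 striatal markers had a difference above 0. With the striatal and oligodendrocyte marker levels as further terms, the Brd1 difference was -0.56 (limma adjusted p 1.75e-05), that of Crybb1 -0.65 (0.0556) and that of Dmp1 -0.26 (0.36), and 1 gene passed. With the microglia marker level as a further term, the Brd1 difference was -0.55 (limma adjusted p 4.04e-05), and 1 gene passed. The part of the other cell types in the differences was not tested.

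Genes around Brd1 were read because a targeted allele is passed on together with its neighbors. Within 1 Mb of Brd1 the table held 48 genes, of which 39 were tested, with a median difference of -0.004. At an unadjusted p under 0.05, 1 was higher and 1 was lower, beside 1.69% and 1.94% of all genes tested. Selenoo, which encodes a mitochondrial selenoprotein, had 11.5 TPM ± 1.42 in WT and 12.6 TPM ± 1.56 in Brd1+/- mice (SD, n = 18 each). Mapk11, the p38 beta kinase, had 52.1 TPM ± 6.99 in WT and 46.4 TPM ± 8.71 in Brd1+/- mice (SD, n = 18 each). The nearest tested genes were Zbed4, 17.4 kb away, with a difference of -0.11 (SE 0.065), Alg12, 71.0 kb away, with 0.11 (SE 0.062), and Creld2, 85.4 kb away, with -0.17 (SE 0.092). On the other side the only tested gene was Fam19a5, 927.7 kb away, with 80.1 TPM in WT and 80.8 TPM in Brd1+/- mice. None of these differences passed adjustment (limma adjusted p of 0.999 for each).

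**Figure D5:**
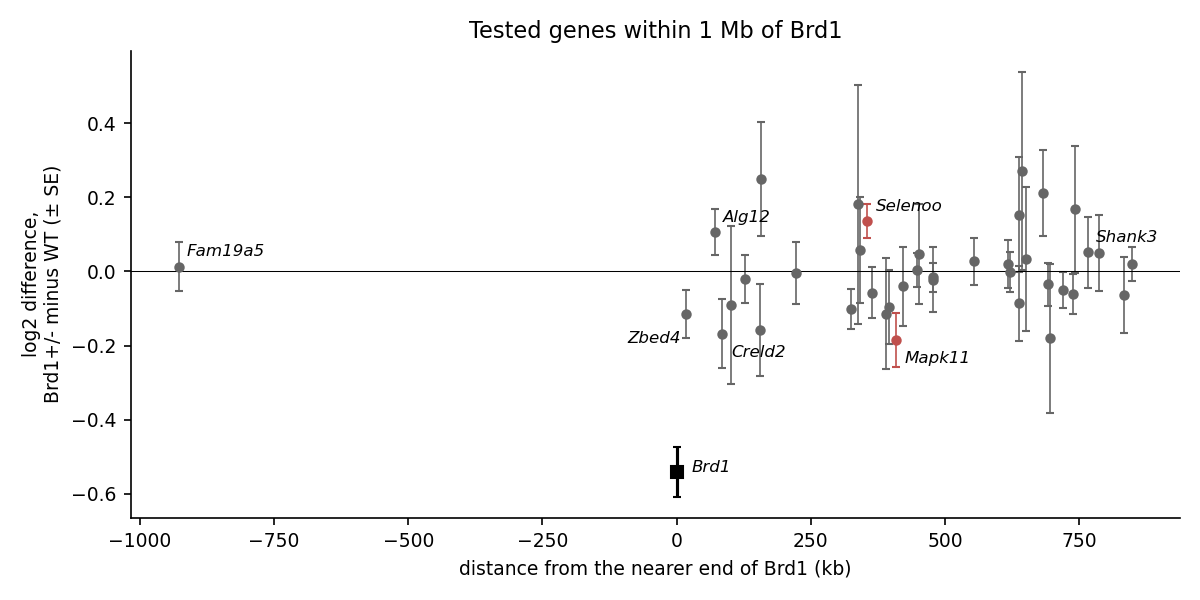
Log2 difference between Brd1+/- and WT mice with its SE (y axis) against the distance in kb from the nearer end of Brd1 (x axis) for the 39 tested genes within 1 Mb and for Brd1 itself (black square). Selenoo and Mapk11, in red, have an unadjusted p under 0.05, and Brd1 lies below all of its neighbors at -0.54.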

How the data were processed

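RNA of right aCC punches was sequenced by the authors as single-end reads on the BGISEQ-500 platform. They trimmed reads with Trimmomatic, checked them with FastQC, aligned them to GRCm38 with HISAT2 2.1.0 and quantified genes with StringTie 1.3.4, per the labels and the study's methods. The deposited values are TPM per gene and library, made by the authors. Column totals lay between 999727.1 and 999889.0, 0 pairs of columns were identical and 0 value columns were left unmatched. TPM keep no depth and only a minimum read number common to all libraries is given, so precision comes from the spread between mice. In limma the spread of each gene is moderated towards a trend over all genes tested. The authors' edgeR test needs counts and was not used here.

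Genes that reached 0.1 TPM in 8 or more of the 36 libraries were tested on log2(TPM + 0.5), which understates changes of low genes, with limma 3.58.1 in R 4.3.3 (genotype plus treatment, intensity trend, two-sided, Benjamini-Hochberg over 25572 genes), checked on simulated data. Permutations used Python 3.11.15, numpy 2.4.6 and scipy 1.17.1. Brd1 exons were read from GENCODE vM21 on GRCm38. Named by rule were the study genes (with Kcnd2), genes passing adjustment, the 10 smallest p in each direction with a mean of at least 1 TPM, the 3 smallest p of any level, the nearest neighbors of Brd1, and list members at p under 0.01 or otherwise the 2 smallest. Kat7, Brpf3, Jade2, Gpr6, Adora2a, Gm48858, Pdia4, Slc2a1, Fosb, Tmem119, P2ry12, Pdgfra, Ttr, Selenoo, Mapk11, further protocadherins and the genes read across treatments were added after their values were seen. The comparison, lists and genes were chosen with earlier results of these data known. The study describes its WT and Brd1+/- mice as matched by litter, but the labels do not give litters, so litter was not fitted. Same-numbered libraries did not deviate together, which cannot show whether litter mattered. Strand use and multi-mapping reads are not given in the sources used here, so antisense, overlapping, short and duplicated genes are uncertain.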

Additional observations from a re-analysis of the deposited data

Results flagged for a closer look

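Of 208 sets of values (52 named genes in 4 groups), 12 held a library far from the rest of its group by Dixon's criterion, which chance alone meets in about 1 of 20 sets. Drd2 was 34.7 TPM in Brd1+/- vehicle 6, where the other libraries of the group lay between 0.347 and 1.96 TPM. Slc6a3 was 0.0588 TPM in WT vehicle 4 and listed at 0 in the rest of that group. In WT vehicle 7, Gm14448 was 3.09 TPM against at most 1.79 TPM in the others. WT vehicle 1 held low values of Fam19a5 (54.6 TPM, others at least 75.0 TPM) and Adcy7 (1.97 TPM, others at least 3.75 TPM). Brd1+/- vehicle 7 held high values of Fam19a5 (110.0 TPM, others at most 83.1 TPM) and Htr7 (11.5 TPM, others at most 5.94 TPM). In the Brd1+/- IMN group, Gad2 was 83.6 TPM in library 3 (others at most 62.0 TPM), Grik5 was 68.6 TPM in library 6 (others at least 108 TPM), mt-Nd6 was 19500 TPM in library 8 and mt-Nd2 was 20087 TPM in library 6. Pcdha6 was 13.2 TPM in Brd1+/- vehicle 5, where the others lay between 0.239 and 1.23 TPM.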

How the results depend on the processing

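Brd1 kept its direction in every alternative run, with log2 differences from -0.564 to -0.52 when each library was left out in turn, and it passed an adjusted p of 0.05 in all but the fits of 1 treatment alone, where it was -0.639 (adjusted p 0.0620) with vehicle and -0.454 (0.882) with IMN, each with fewer libraries. The number of genes passing was 1 in the joint fit, 0 with vehicle only, 0 with IMN only, 2 with array weights and 2 without WT vehicle 1 and Brd1+/- vehicle 6 together, and lay between 1 and 3 when single libraries were left out: 3 without WT vehicle 7, and 2 without WT vehicle 1 or Brd1+/- IMN 3. At an unadjusted p under 0.05 there were 959 genes with vehicle only and 826 with IMN only. The added genes were Crybb1 and, in 1 fit, Dmp1. The 187 genes at an unadjusted p under 0.01 became 110 where a mean of at least 1 TPM was required, with fewer genes tested (17716), 259 with the striatal and oligodendrocyte levels as terms, 184 with the microglia level and 280 with array weights, and ran from 158 to 242 when single libraries were left out. Among the named genes the sign turned for Slc25a35 with vehicle only (-0.02), Brpf3 with vehicle only (-0.03) and Fam19a5 with array weights (-0.031), with vehicle only (-0.022), without the same pair of libraries (-0.024) and over single libraries left out (-0.023 to 0.031). The cause was not tested. Deviations of same-numbered libraries correlated at a mean r of -0.02 over 51 pairs, and 1 library of 36 correlated best with its own number. The labels do not tie these numbers to litters, so this check does not bear on litters. With the replicate block, 1 gene passed, Brd1 at -0.54 (adjusted p 0.00129), and 182 genes had an unadjusted p under 0.01. The alternative with the microglia level was chosen after seeing the data. All p are from limma.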
